A study of Homo sapiens with 6 samples.

Results

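The DNA glycosylases that start base excision repair were followed through a combined depletion of the 3 TET enzymes in human cells. The group was set by gene name as TDG, UNG, SMUG1, OGG1, MUTYH, NTHL1, NEIL1, NEIL2, NEIL3 and MPG. Every probe set (a group of array probes for 1 transcript) whose only annotated gene was among these 10 names was taken, which gave 9 of 19775 genes, with 14 of 54613 probe sets. NEIL1 had no probe set annotated to it alone and is given no value. Of the 14 probe sets, 12 lay in the brighter 50% of the arrays and were tested, at least 1 for each of the 9 genes. The dim probe sets, 1 of OGG1 and 1 of SMUG1, were read without the brightness filter.

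The cells were Flp-In T-REx 293, which derive from HEK293, a line of human embryonic kidney, and take up transgenes at 1 prepared site. All of them carried a stable, inducible GFP transgene that stayed uninduced. In the TET siRNA group, siRNAs against TET1, TET2 and TET3 were given together. The control group received non-targeting siRNAs as a pool, and RNA of both groups was collected after 96 h. Each group had 3 one-colour Affymetrix arrays, from the same 3 clones, so each clone gave 1 TET siRNA array and 1 control array. The labels do not say whether the clones were handled on separate days, so p-values measure the spread between these arrays alone.

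A DNA glycosylase finds a damaged or mispaired base and cuts it from its sugar, after which an endonuclease, a polymerase and a ligase replace the nucleotide. TET enzymes oxidise 5-methylcytosine to 5-hydroxymethylcytosine, 5-formylcytosine and 5-carboxylcytosine, and TDG removes the latter pair, so that repair puts an unmodified cytosine in place. The other members mostly deal with uracil, oxidised or alkylated bases. The comparison asks how the transcripts of these enzymes differ when the TET enzymes upstream of TDG are depleted.

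All 3 siRNA targets were lower. Signal at the brightest probe set was 17.9% of control for TET1, 46.8% for TET2 and 42.9% for TET3, each lower in 3 of 3 clones (limma adjusted p 3.09e-06, 0.0047 and 0.0021 with the clones paired; 0.0023, 0.198 and 0.0678 unpaired). Each array had a trimmed mean of 1000.1, and log2 signals of the tested probe sets correlated between arrays at 0.972 to 0.986. Cell type markers were read at their brightest probe set, by which 12318 of all 19775 genes lay in the brighter 50% of probe sets. All 7 HEK293 markers listed for this check (VIM, KRT8, KRT18, NEFL, NEFM, ENO2 and PAX2) did so. Of 6 markers of other cell types 5 did not (PTPRC, CD3E, ALB, DCN and MYH7). The endothelial marker PECAM1 did, at 147 to 210, not far below NEFM at 193 to 406. With 3 arrays a group, their number limits the precision.

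TET enzymes act mostly at CpG sites, so the CpG content of the glycosylase promoters was counted. Promoters from RefSeq (GRCh38.p14) matched 7 of the 9 genes by symbol, with 10 start sites among them, and none matched SMUG1 or NEIL2. The 250 bases before the start are shown for TDG, which acts on TET products, and for OGG1 and MPG, which hold the smallest p among the higher and the lower members, with each CpG in capitals.
TDG, chr12:103965622-103965871, plus strand: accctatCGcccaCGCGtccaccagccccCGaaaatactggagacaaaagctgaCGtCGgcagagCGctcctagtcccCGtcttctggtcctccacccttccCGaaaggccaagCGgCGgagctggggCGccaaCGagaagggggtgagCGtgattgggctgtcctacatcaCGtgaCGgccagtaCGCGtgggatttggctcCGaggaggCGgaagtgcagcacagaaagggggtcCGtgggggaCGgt
OGG1, chr3:9749702-9749951, plus strand: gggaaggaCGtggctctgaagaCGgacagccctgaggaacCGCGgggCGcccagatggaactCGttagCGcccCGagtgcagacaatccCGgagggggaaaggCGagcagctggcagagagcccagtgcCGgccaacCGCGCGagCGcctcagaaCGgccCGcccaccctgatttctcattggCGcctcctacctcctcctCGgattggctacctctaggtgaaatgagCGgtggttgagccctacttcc
MPG, chr16:77975-78224, plus strand: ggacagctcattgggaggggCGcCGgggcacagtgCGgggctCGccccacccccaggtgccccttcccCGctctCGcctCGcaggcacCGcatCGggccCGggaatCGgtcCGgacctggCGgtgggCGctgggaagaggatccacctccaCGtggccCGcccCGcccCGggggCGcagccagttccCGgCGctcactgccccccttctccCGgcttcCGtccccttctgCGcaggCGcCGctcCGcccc

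The TDG stretch holds 22 CpG, that of OGG1 20 and that of MPG 27. NTHL1 had the most of the group, with 36, and the 3 MUTYH starts had 34, 28 and 10. NEIL3 had 19, and the 2 UNG starts had 18 and 24. Of the 10 start sites, 9 lay above the median of 11 CpG over 35116 promoters of this length, of which 93.9% hold at least 1 CpG. CG is its own reverse complement, so both strands give the same count. Methylation was not measured on these arrays, and the count is a description of sequence alone.

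**Figure D1:**
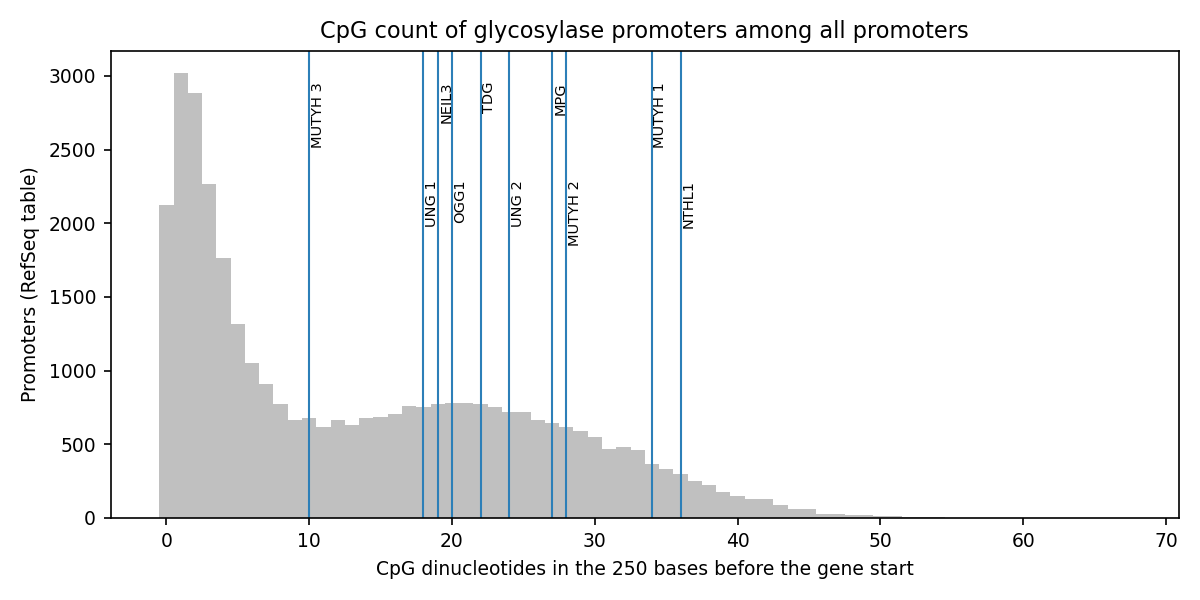
Number of CpG dinucleotides (x axis) in the 250 bases before the start of each RefSeq promoter, with the number of promoters on the y axis. Blue lines mark the 10 start sites of 7 glycosylase genes, numbered by position where a gene has several. They run from 10 (a MUTYH start) to 36 (NTHL1), and 9 of 10 lie above the median of 11.

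None of the glycosylase transcripts passed the threshold between TET siRNA and control. In limma with the clone as a block, 0 of 12 tested probe sets had an adjusted p under 0.05, against 1.03% of all 27306 tested probe sets (0.385% higher and 0.648% lower). Without the block it was again 0 of 12, against 0.0146% of all. At an unadjusted p under 0.05 there were 2 of 12, MPG and 1 OGG1 probe set, against 14.4% of all. MPG was lower, as 6.12% of all were at this p, and OGG1 higher, as 8.25% were. Unpaired, MPG alone had such a p (1 of 12, against 6.61% of all). The median log2 difference over the 12 was -0.02, from -0.31 to 0.34, beside 0.02 over all tested probe sets. The median size without sign was 0.14, beside 0.12 over all. In RNA from whole cultures, fewer cells with a transcript and less of it per cell cannot be told apart.

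The intervals show which differences these arrays leave possible. The 95% interval of the difference lay within 2-fold in either direction for 12 of 12 probe sets, as for 92.8% of all tested. It lay within 1.5-fold for 10 of 12, as for 67.1% of all, and both probe sets outside belong to OGG1. Without the block 12 of 12 lay within 2-fold, as for 89.1% of all, and 8 of 12 within 1.5-fold, as for 56.4% of all. These intervals are for 1 probe set at a time and are not adjusted for the number of probe sets.

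**Figure D2:**
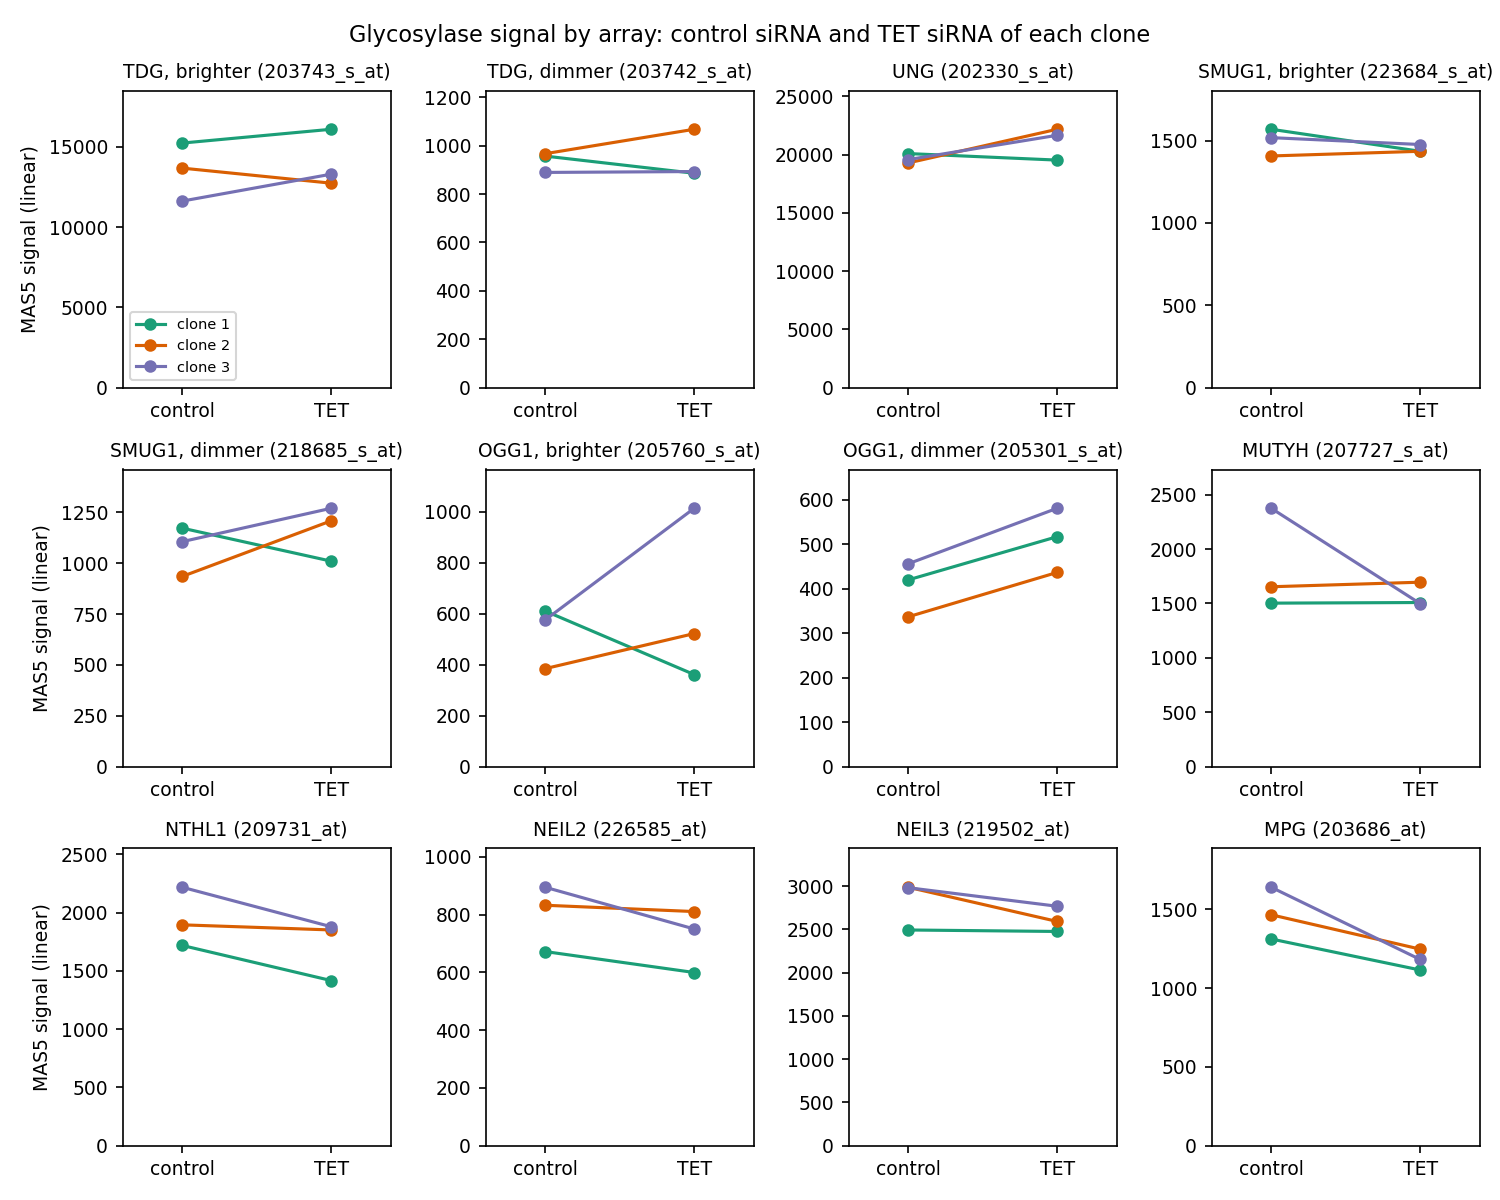
MAS5 signal on a linear axis starting at 0 (y axis) for the 12 tested probe sets, under control siRNA and TET siRNA (x axis), with 1 line per clone. MPG is the only panel in which all 3 TET siRNA arrays (1115 to 1247) lie below all 3 controls (1312 to 1640). Lines of different clones cross in most panels, including that of MPG.

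The uracil and thymine glycosylases TDG, UNG and SMUG1 belong to one superfamily. TDG removes thymine or uracil mispaired with guanine besides the oxidised cytosines. Its brighter probe set read 16102, 12742 and 13304 under TET siRNA in clones 1, 2 and 3, and 15242, 13681 and 11627 under control siRNA. The groups overlapped throughout, and clone 2 differed in the opposite direction to clones 1 and 3. The mean level was 104% of control (95% interval 92.8 to 117%; log2 0.06, SE 0.08, limma adjusted p = 0.793). The dimmer TDG probe set read 886, 1067 and 893 against 957, 967 and 889. Its level was 101% of control (85.1 to 120%; log2 0.01, SE 0.11, adjusted p = 0.976 in limma), and here clone 1 alone was lower. Both TDG intervals exclude a change as large as that of any of the 3 TET transcripts.

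UNG, the main remover of uracil from DNA, which makes a nuclear and a mitochondrial form, read 19534, 22181 and 21665 under TET siRNA. The controls read 20094, 19291 and 19576 and stood close together, with 2 of 3 clones higher under TET siRNA. The level was 107% of control (95.9 to 120%; log2 0.10, SE 0.07, limma adjusted p = 0.581). SMUG1, which removes uracil and 5-hydroxymethyluracil, had a level of 96.8% of control (83.9 to 112%) at the brighter and 109% (89.8 to 131%) at the dimmer of its 2 tested probe sets. The brighter one read 1435, 1435 and 1476 against 1569, 1407 and 1518. The dimmer one read 1011, 1209 and 1271 against 1173, 936 and 1107, with clone 1 lower and clones 2 and 3 higher. The dimmest SMUG1 probe set read 5.89 to 13.9 on all 6 arrays, far below the filter at a mean signal of 117. RefSeq names pseudogenes of TDG (TDGP1), UNG (UNGP1, UNGP2 and UNGP3) and SMUG1 (SMUG1P1), and whether their transcripts reach these probes was not tested.

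OGG1, MUTYH and NTHL1 share a helix-hairpin-helix fold and deal mainly with oxidised bases. OGG1 removes 8-oxoguanine paired with cytosine. The dimmer of its 2 tested probe sets read 517, 436 and 581 under TET siRNA and 420, 337 and 456 under control siRNA. Each clone was higher under TET siRNA, by 0.30, 0.37 and 0.35 on the log2 scale. The groups still overlapped: the control of clone 3 (456) read above the TET siRNA array of clone 2 (436). All 3 clones were higher for 1 of 12 glycosylase probe sets, beside 20.5% of all tested. The level was 127% of control (102 to 158%; log2 0.34, SE 0.14, unadjusted p = 0.0375, limma adjusted p = 0.310, and 0.794 unpaired).

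The brighter OGG1 probe set did not show the same pattern by clone. It read 362, 523 and 1015 under TET siRNA against 611, 385 and 576, so clone 1 was at 59.2% of control while clones 2 and 3 were at 136% and 176%. The mean difference was 0.17 (SE 0.28, 95% interval -0.49 to 0.83, adjusted p = 0.849 in limma), and it was 0.63 without clone 1 (adjusted p = 0.182) and -0.16 without clone 3 (adjusted p = 0.945). The dimmest OGG1 probe set, below the filter, read 90.3, 73.2 and 53.9 against 116, 10.9 and 16.8. Its controls spanned a wide range, and it differed by 1.36 (SE 0.75, adjusted p = 0.629 in limma without the brightness filter).

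MUTYH removes adenine placed opposite 8-oxoguanine. It read 1509, 1696 and 1499 under TET siRNA and 1503, 1654 and 2375 under control siRNA. The control of clone 3 stood apart: clones 1 and 2 were at 100.4% and 103% of control and clone 3 at 63.1%. The mean difference was -0.21 (SE 0.14, limma adjusted p = 0.543), and without clone 3 it was 0.02. NTHL1, which removes oxidised pyrimidines, read 1416, 1850 and 1878 against 1717, 1894 and 2217. It was lower in 3 of 3 clones, the groups overlapped, and the level was 88.0% of control (76.6 to 101%; log2 -0.18, SE 0.09, adjusted p = 0.397 in limma and 0.879 unpaired).

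MUTYH and NTHL1 each have a gene starting within 1000 bases on the opposite strand in RefSeq, TOE1 and TSC2. TOE1 read 2285, 1815 and 1826 under TET siRNA against 2166, 1296 and 1698, a difference of 0.22 (SE 0.10, limma adjusted p = 0.353). The tested TSC2 probe set read 175, 233 and 130 against 208, 86.0 and 144, a difference of 0.35 (SE 0.35, adjusted p = 0.712 in limma). The mean differences were thus positive at both neighbours and negative at MUTYH and NTHL1, and no difference of these 4 passed. At this TSC2 probe set clone 2 alone was higher under TET siRNA, and MUTYH was lower in clone 3 alone. The other TSC2 probe set, below the filter, read 72.4, 118 and 70.9 under TET siRNA against 97.3, 124 and 86.2.

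The NEIL enzymes, related to bacterial Fpg and Nei, remove oxidised pyrimidines and ring-opened purines. NEIL2, which prefers bubbles and other open DNA, read 600, 811 and 751 under TET siRNA against 672, 833 and 895. NEIL3, an enzyme of proliferating cells that also takes part in unhooking interstrand crosslinks, read 2477, 2592 and 2768 against 2494, 2987 and 2982. Both were lower in 3 of 3 clones by small amounts, and the groups overlapped. The levels were 90.0% of control for NEIL2 (75.0 to 108%; limma adjusted p = 0.615) and 92.8% for NEIL3 (82.2 to 105%; adjusted p = 0.593).

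MPG, also called AAG, removes alkylated purines such as 3-methyladenine, and hypoxanthine. It read 1115, 1247 and 1182 under TET siRNA and 1312, 1465 and 1640 under control siRNA. It was the single glycosylase probe set whose groups did not overlap, with every TET siRNA array below every control. Such a separation downwards was found in 5.5% of all tested probe sets. The level was 80.5% of control, with a 95% interval of 69.0 to 93.9%. Clones 1, 2 and 3 stood at 85.0, 85.1 and 72.1%. The log2 difference was -0.31 (SE 0.10, unadjusted p = 0.0099). It did not pass over all probe sets (limma adjusted p = 0.182, and 0.720 unpaired). Its unadjusted p ranked among the lowest 5.43% of tested probe sets. Without clone 3 the difference was -0.23 (unadjusted p = 0.112 in limma).

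**Figure D3:**
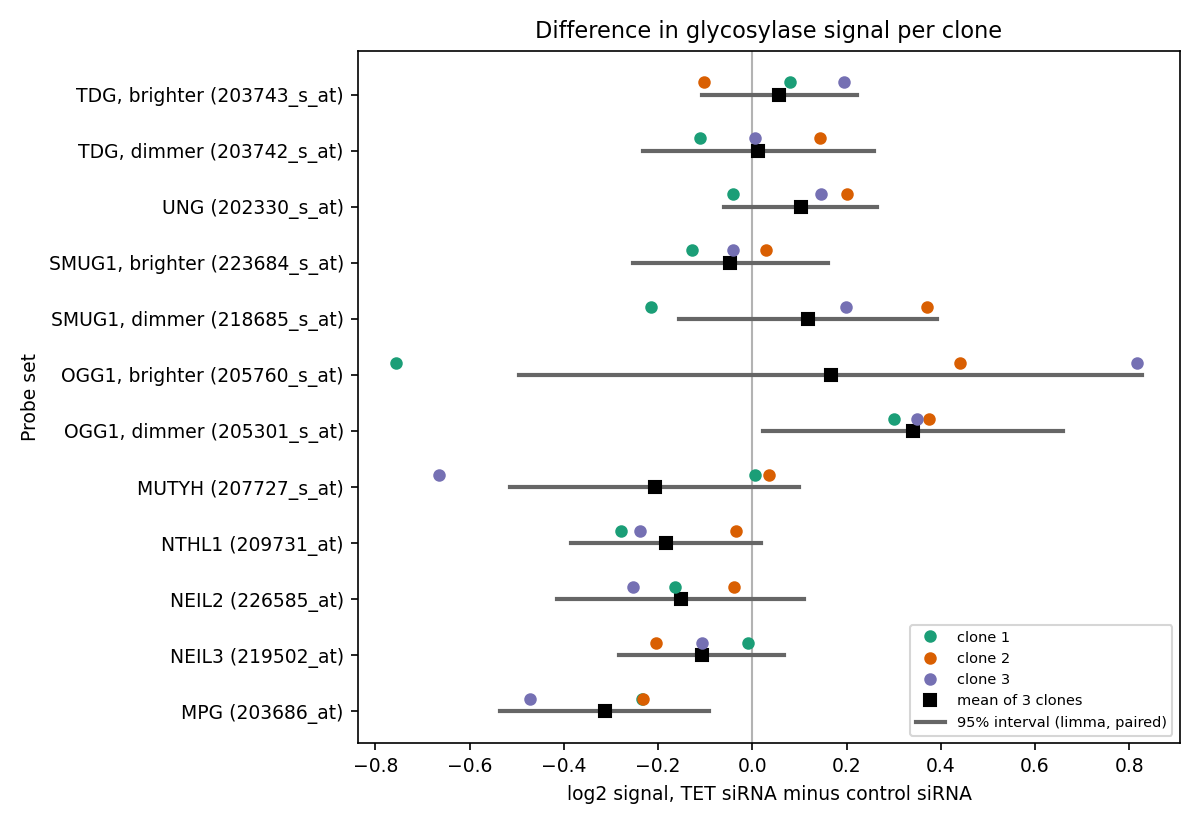
Log2 difference of TET siRNA minus control (x axis) for the 12 tested glycosylase probe sets (y axis). Coloured points are the 3 clones, black squares their mean and grey bars the 95% interval of the paired limma fit. MPG lies lowest at -0.31 and the dimmer OGG1 probe set highest at 0.34, and no probe set passed over all tested.

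By direction, 4 of the 12 probe sets were lower in all 3 clones (NTHL1, NEIL2, NEIL3 and MPG), beside 15.7% of all tested. A shared sign in the 3 clones, in either direction, was found in 5 of 12 and in 36.2% of all tested. The median difference over the 12 probe sets was -0.12 in clone 1, 0.03 in clone 2 and -0.02 in clone 3, so it did not keep 1 sign. Single arrays took part unevenly. The TET siRNA array of clone 1 was the lowest of the 6 arrays for 6 of 12 probe sets, beside 20.9% of all tested. The control of clone 3 was the highest for 4 of 12 (MUTYH, NTHL1, NEIL2 and MPG), beside 15.4% of all. The control of clone 2 was the lowest for 4 of 12 (probe sets of UNG, SMUG1 and OGG1), beside 19.1% of all. The TET siRNA array of clone 3 was the highest for 3 of 12 (SMUG1 and OGG1), beside 14% of all. The median difference over the 12 was 0.02 without clone 1, -0.06 without clone 2 and -0.03 without clone 3.

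No glycosylase probe set passed the test of differences between clones. In level, the brighter TDG probe set was highest in clone 1, at 15242 and 16102, against 11627 to 13681 on the 4 arrays of clones 2 and 3. NTHL1 and NEIL2 had the reverse order in level, with both clone 1 arrays below all 4 others (NTHL1 1416 and 1717 against 1850 to 2217, NEIL2 600 and 672 against 751 to 895). In the F-test of the clone terms in limma, 0 of 12 glycosylase probe sets passed (adjusted p 0.0837 for TDG, 0.106 for NTHL1 and 0.190 for NEIL2, the 3 lowest), against 8.27% of all tested. At an unadjusted p under 0.05 there were these 3 of 12, against 23.7% of all. A clone has 1 array per siRNA, so clone, culture and hybridisation cannot be told apart.

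Over the 6 arrays, the genes whose log2 signal followed that of the brighter TDG probe set most closely were ALG10 (Pearson r = 0.997), MARK3 (0.995), DDX42 (0.992), EMC10 (0.991) and UBA6 (0.991), out of 12317 genes compared. The 6 arrays share clones and scaling, and these values are a description with no test.

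MBD4, a glycosylase with a methyl-CpG binding domain that removes thymine and uracil opposite guanine at CpG sites, lies outside the 10 names and is given for comparison. Its 4 probe sets differed by 0.10, 0.14, -0.06 and 0.20 from the brightest to the dimmest, with a limma adjusted p of 0.492 to 0.817. The second of them read 3149, 2771 and 2771 under TET siRNA, above controls of 2620, 2582 and 2699, a separation upwards found in 7.21% of all tested probe sets.

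Genes of the later steps of base excision repair were read beside the glycosylases, and calls were rare among all genes too. In each list every gene was read at its brightest probe set, and the median over all 12318 genes tested was 0.01 on the log2 scale. Of these 12318 genes, 6397 were higher and 5921 lower, and in the paired fit 59 passed as higher and 103 as lower. Absence of a call in the short repair lists below is thus near the share over all genes. Of 6 tested genes of incision and end processing, 5 were lower and none passed (median -0.04). The smallest p were those of APEX1, the main endonuclease at abasic sites, at -0.10 (limma adjusted p = 0.596), and of TDP2, which frees ends held by topoisomerase, at -0.06 (0.751). The 13 tested genes of gap filling, ligation and scaffold had a median of 0.00 (7 higher, 6 lower, none passed), with RFC1 of the clamp loader at 0.14 and the replicative polymerase POLE at 0.25. POLB, which fills the single-nucleotide gap, differed by -0.03 (SE 0.06) and the scaffold XRCC1 by 0.16 (SE 0.13). APLF, POLL and POLD4 were too dim to test.

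Among 7 genes that clean the nucleotide pool or reverse damage directly, none passed and the median was 0.09. SAMHD1, a dNTP hydrolase, had the smallest p at 0.33 (SE 0.07, limma adjusted p = 0.0647). It was higher in 3 of 3 clones, as were 20.5% of all tested probe sets. Its groups overlapped. It passed without clone 2 and with the stricter filter (upper 30%), and in no other alternative. The limma adjusted p of SAMHD1 was 0.773 unpaired and 0.234 with no brightness filter. ALKBH2, a 2-oxoglutarate dioxygenase that demethylates alkylated DNA bases, differed by -0.28 (SE 0.08, limma adjusted p = 0.132, and 0.628 unpaired). ALKBH2 was lower in 3 of 3 clones, as were 15.7% of all tested probe sets. Its TET siRNA arrays all lay below the controls, as in 5.5% of all. Of 8 tested TDG partners and candidate demethylation factors none passed (median -0.04, 4 higher and 4 lower). SUMO3, a small ubiquitin-like modifier, differed by 0.27 (limma adjusted p = 0.0768, and 0.520 unpaired). Its TET siRNA arrays all lay above the controls, as in 7.21% of all tested probe sets. GADD45B, a stress protein linked to demethylation, differed by -0.32 (limma adjusted p = 0.259, and 0.754 unpaired). The TET siRNA arrays of GADD45B all lay below the controls, as in 5.5% of all tested. APOBEC1 was too dim to test.

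Genes of the cell cycle are given beside the glycosylases, since UNG and NEIL3 are known to be made in dividing cells. Of all 12318 genes tested, 5921 were lower, and in the paired fit 103 passed as lower and 59 as higher. Of 12 S phase genes, 6 were higher and 6 lower with a median of 0.00. CCNE2, a cyclin of S phase entry, rose by 0.37 (limma adjusted p = 0.0447 with the block, 0.797 without it). All 13 mitosis genes had negative differences with a median of -0.14, and MKI67 (-0.52), CCNB2 (-0.83), NUSAP1 (-0.42) and CENPF (-0.33) fell (adjusted p 0.0080, 0.00055, 0.0168 and 0.0475). Only CCNB2 of these 5 genes passed without the block, with no brightness filter or without clone 3. Without clone 1 only MKI67 and CCNB2 passed, and with quantile normalization or without the robust step CCNE2 and CENPF were not called. With plain empirical Bayes none of these 5 genes passed. NEIL3 differed by -0.11, with -0.01, -0.20 and -0.11 in clones 1, 2 and 3 beside mitosis medians of -0.28, -0.18 and -0.18. Closeness to the mitosis median was not particular to NEIL3: NEIL2 at -0.15 lay nearer. The median of the 9 glycosylases, each at its brightest probe set, was also -0.11. UNG at 0.10 had the opposite sign. The part of the cell cycle in these values was not tested.

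**Figure D4:**
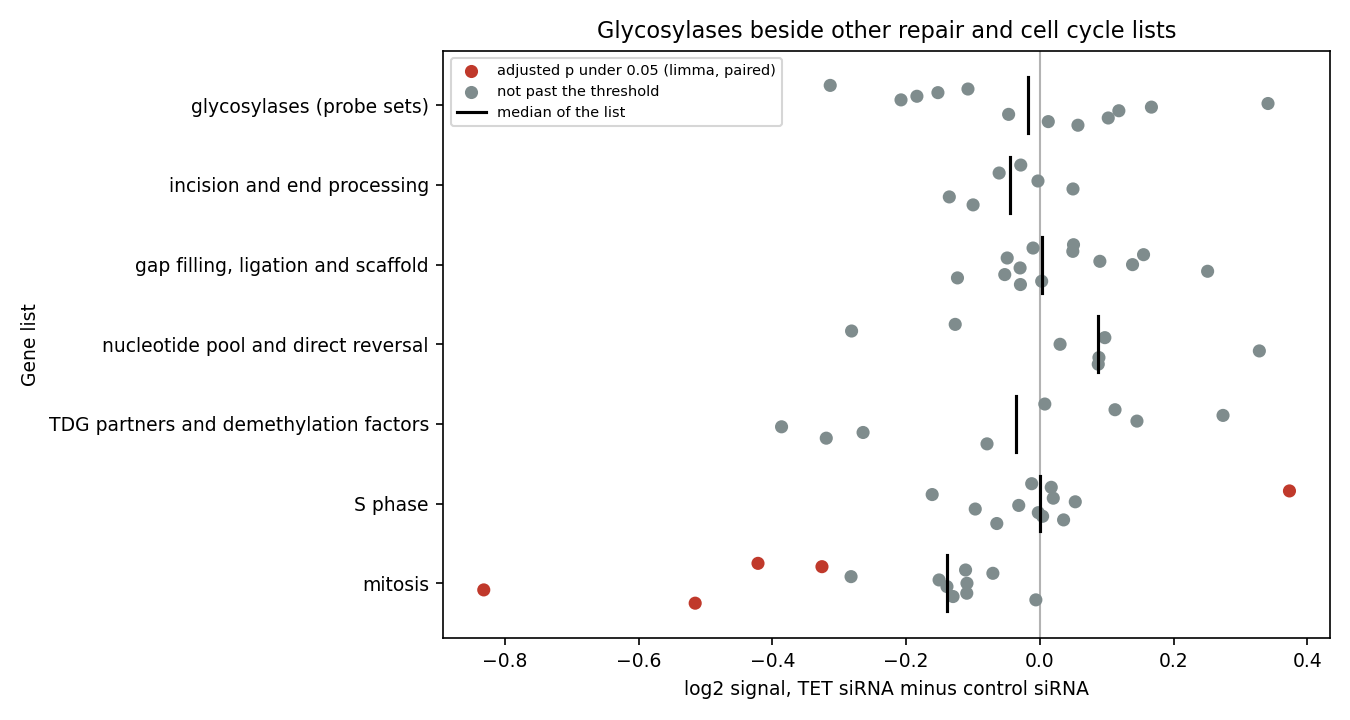
Log2 difference of TET siRNA minus control (x axis) for the 12 glycosylase probe sets and for the tested genes of 6 other lists (y axis), with vertical bars at the list medians. Red points passed an adjusted p of 0.05 in the paired limma fit: 4 mitosis genes below 0 and CCNE2 above it, and none among the glycosylases or the 4 other repair lists.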

How the data were processed

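The deposited table holds 1 intensity per probe set and array, a linear MAS5 signal. The submitters' processing notes name MAS5 without a version. Trimmed means are equal across the deposited arrays, and nothing further was normalized in the main fit. Equal means do not show equal distributions. With quantile normalization the median log2 difference over all tested probe sets was 0.0037, beside 0.0193 in the main fit. Platform annotation named 1 gene for 41091 of 54613 probe sets, several for 1801 and none for 11721, after 62 controls were set aside. All 9 glycosylase genes were found by Entrez ID in RefSeq. Of the 12 tested probe sets 8 carry the suffix _s_at, which marks probes shared by several transcripts.

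Probe sets were ranked by mean log2 signal over the 6 arrays, and the upper 50% were fitted on the log2 scale in limma 3.58.1 (R 4.3.3) with siRNA and clone as terms, trended and robust empirical Bayes and Benjamini-Hochberg adjustment over all 27306. The fit was tested on simulated data with known changes. These were drawn from the clone means and spreads of the paired fit, so they cannot show whether the block suits these arrays. The clone is the block because the labels name the same clones in both groups; same-clone deviations from the group means correlated at 0.493, 0.234 and 0.236, and the highest value between different clones was 0.219.

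The members, gene lists and tests were chosen with earlier results of these data known. Named genes were all members, the 3 targets, MBD4 and, in each list, the passing genes or else the 2 of smallest p; POLB and XRCC1 were added after their values were seen, and TOE1 and TSC2 by position alone. Some list genes are not reported here. Alternatives covered the block, the brightness filter, a pseudocount of 36.1, quantile normalization, the empirical Bayes step and each clone or array left out. Plots were drawn with matplotlib 3.10.9.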

Additional observations from a re-analysis of the deposited data

How the results depend on the processing

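No glycosylase probe set passed in any of the 16 alternatives run, in the comparison of siRNAs or, in the 6 alternatives run for it, between clones. Some of these alternatives could hardly call a member, since few of all 27306 tested probe sets passed. Between siRNAs it was 0 with plain empirical Bayes and 4 with no replicate block, and between clones 1 with plain empirical Bayes. Of 191 values of single glycosylase probe sets under the 16 alternatives, 179 kept their sign and 12 turned it, each with an adjusted p of 0.9025 or more. With quantile normalization the dimmer TDG probe set was -0.016. With a clone left out of the paired fit, the brighter TDG probe set ranged from -0.012 to 0.137, the dimmer from -0.053 to 0.075, the dimmer SMUG1 probe set from -0.0077 to 0.285, the brighter OGG1 probe set from -0.158 to 0.629 and MUTYH from -0.329 to 0.021. With no replicate block and a TET siRNA array left out, the range was -0.045 to 0.124 for the brighter and -0.075 to 0.059 for the dimmer TDG probe set, and -0.241 to 0.503 for the brighter OGG1 probe set. With a control array left out instead, these were -0.047 to 0.148, -0.025 to 0.035 and -0.041 to 0.292. MPG stayed between -0.39 and -0.23, with an adjusted p of 0.137 to 0.9999.

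Over all tested probe sets the paired count of 282 was 4 with no replicate block, 70 with no brightness filter, 0 with plain empirical Bayes (3355 at an unadjusted p under 0.05) and 63 to 684 with a clone left out. With no replicate block and 1 array left out it was 2 to 4 (TET siRNA) or 2 to 3 (control). The count between clones, 2259, was 847 with no brightness filter and 1 with plain empirical Bayes. The causes were not tested. With the stricter filter (upper 30%), the dimmer OGG1 probe set was too dim and had no value.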
